A study of Mus musculus with 4 samples.

Results

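Transcript levels of 36 genes of the lysosome were followed in blood monocytes with and without RBP-J, the DNA-binding protein through which Notch receptors act on their target genes. The genes were chosen by name and not by a rule on measured values, but with earlier results of these data known. They comprised 9 cathepsins, 14 further hydrolases and luminal partner proteins, 7 membrane proteins, 5 parts of the proton pump V-ATPase and the transcription factor *Tfeb*. All 36 were found among the 23995 gene symbols of the RNA-seq table and were among the 10240 symbols counted as expressed, which means an FPKM (fragments per kilobase of gene model, relative to library size) of 1 or more in 1 library or more. Ly6Clo (nonclassical, patrolling) and Ly6Chi (classical, inflammatory) monocytes were sorted from blood of 2 genotypes, giving 4 groups of 1 library each. RBP-J-deficient mice carried Rbpj fl/fl with Lyz2cre/cre, and control mice, titled WT in the records with Lyz2-Cre as genotype label, carried Rbpj+/+ with Lyz2cre/cre, so that Cre sat in both copies of *Lyz2* in all groups. Lyz2-Cre is active in the myeloid lineage, including neutrophils and macrophages. Adult mice were matched for gender and age, untreated as far as the labels say, and how many mice went into each library is not given in the sources used here. With 1 library per group there is no replicate check of any difference below, and no test was made.

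Lysosomes break down what a cell takes up by phagocytosis and endocytosis and what it delivers by autophagy. Cathepsins and other acid hydrolases work in the lumen, the V-ATPase acidifies it, and heavily glycosylated membrane proteins such as LAMP1 line its inner face. Many of these genes carry a palindromic promoter element, the CLEAR element, that TFEB and its relatives bind, and TFEB itself is held in the cytoplasm by the kinase mTORC1 at the lysosomal surface when nutrients are plentiful. In monocytes and macrophages the same compartment also prepares antigens for MHC class II, a step in which cathepsin S is well known.

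The deleted gene *Rbpj* had 8.30 FPKM in control Ly6Clo and 2.43 FPKM in RBP-J-deficient Ly6Clo monocytes, and 14.4 and 2.85 in Ly6Chi monocytes. The Ly6Chi marker list, 8 genes led by *Ly6c2*, summed to 5684 and 5005 in control and RBP-J-deficient Ly6Chi monocytes. In Ly6Clo monocytes it summed to 445.1 with and 1473 without RBP-J. Most of this was *Hp*, at 333.5 and 818.3, with *Ccr2* at 59.2 and 473.7 and *Ly6c2* at 10.9 and 78.3. The Ly6Clo list, with 9 of its 11 genes matched, summed to 3122 in control Ly6Clo, 1922 in RBP-J-deficient Ly6Clo, 661.3 in control Ly6Chi and 1025 in RBP-J-deficient Ly6Chi monocytes. Within this list *Pparg* (208.4 in control, 372.8 without RBP-J) and *Fabp4* (234.6 and 343.0) were higher without RBP-J in Ly6Clo monocytes. The other matched genes were lower there, *Cx3cr1* only slightly (88.1 and 81.2). Summed markers of T cells and of NK cells stayed below 4 FPKM in every library, those of B cells lay between 25.04 and 101.7 (mostly *Cd79b*), those of platelets between 124.1 and 350.3, and those of neutrophils, mostly *S100a8*, at 232.9 and 156.6 in control and RBP-J-deficient Ly6Clo and at 1485 and 1176 in Ly6Chi monocytes. Of the 9 neutrophil genes matched, *S100a9* was at 201.7 and 144.5 in control and RBP-J-deficient Ly6Chi monocytes. In Ly6Clo monocytes it was at 34.4 and 22.7. *Mmp8* was at 194.8 and 154.5 in Ly6Chi monocytes, and at no more than 7.62 in Ly6Clo monocytes. *Ctsg* was at 2.56 and 5.23 in Ly6Chi monocytes and *Elane* at 1.13 in control Ly6Chi monocytes, both at 0 elsewhere. *Camp* and *Ngp* were at 5.52 and 4.87 in RBP-J-deficient Ly6Chi monocytes, with *Camp* at 0 and *Ngp* at no more than 0.185 elsewhere. *Mpo* was at 0 in every library and *Ltf* near 0. *Actb*, which all of these cells use, is listed at 27260 and 22795 in the controls but at 0 without RBP-J in either subset, with a mark of a failed estimate, so a gene listed at 0 is not taken as absent. The rows of the 36 members carry no such mark. Read counts were not used here, so depth is unknown and no counting interval is given.

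Between genotypes, the members leaned towards lower values in RBP-J-deficient monocytes of both subsets, and on the scale used here *Mcoln1* and *Tfeb* lay furthest below 0 in each. Differences are log2 ratios of (FPKM + 1) with the control as denominator, a scale that understates changes of genes with low values. In Ly6Clo monocytes the median over the members was -0.28, against 0.02 over all expressed genes. Below 0 were 22 of 36 members (61.1%), against 48.2% of all expressed genes. In Ly6Chi monocytes the median was -0.20, against 0.0041 over all expressed genes. Here 26 of 36 members (72.2%) were below 0, against 49.3% of all expressed genes. These medians and counts weigh every member alike. The summed FPKM of the members was higher without RBP-J in Ly6Clo monocytes, at 13581 in control and 16176 in RBP-J-deficient cells. As a share of the library total this was 1.89% and 1.83%. In Ly6Chi monocytes the sum was 16201 and 15382, or 2.28% and 2.01%. In a bulk library, fewer cells of a type and less RNA per cell cannot be told apart. Rescaling each library to TPM (FPKM divided by the library's FPKM total) moved the median of all genes to -0.22 in Ly6Clo and -0.082 in Ly6Chi monocytes, and that of the members to -0.59 and -0.30. On that scale 28 and 29 of 36 members were below 0, against 60.9% and 56.4% of all expressed genes.

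At a difference of at least 2-fold in (FPKM + 1), 6 members (16.7%) were lower in RBP-J-deficient Ly6Clo monocytes, where 11.1% of all expressed genes were. These were *Mcoln1*, *Tfeb*, *Ctsb*, *Ctsd*, *Lamp1* and *Ctsa*. Only *Ctsc* and *Cd63* (5.56%) were higher by as much, against 8.97% of all expressed genes. After TPM rescaling 12 members (33.3%) were lower and 2 (5.56%) higher, with 17.7% and 5.24% of all genes past the same thresholds. In Ly6Chi monocytes *Tfeb*, *Mcoln1* and *Gaa* (8.33%) were at least 2-fold lower, against 4.56% of all expressed genes, and no member was at least 2-fold higher, against 2.64%. On the FPKM scale the shares of members were thus within a few percentage points of the background in each direction, while after TPM rescaling the share of lower members in Ly6Clo monocytes stood further above it. No member reached the fold thresholds of the study's methods, 5.7 and 0.2 on (FPKM + 1). These were passed by 0.273% of expressed genes upwards and 0.674% downwards in Ly6Clo monocytes, and by 0.156% upwards and 0.156% downwards in Ly6Chi monocytes.

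**Figure D1:**
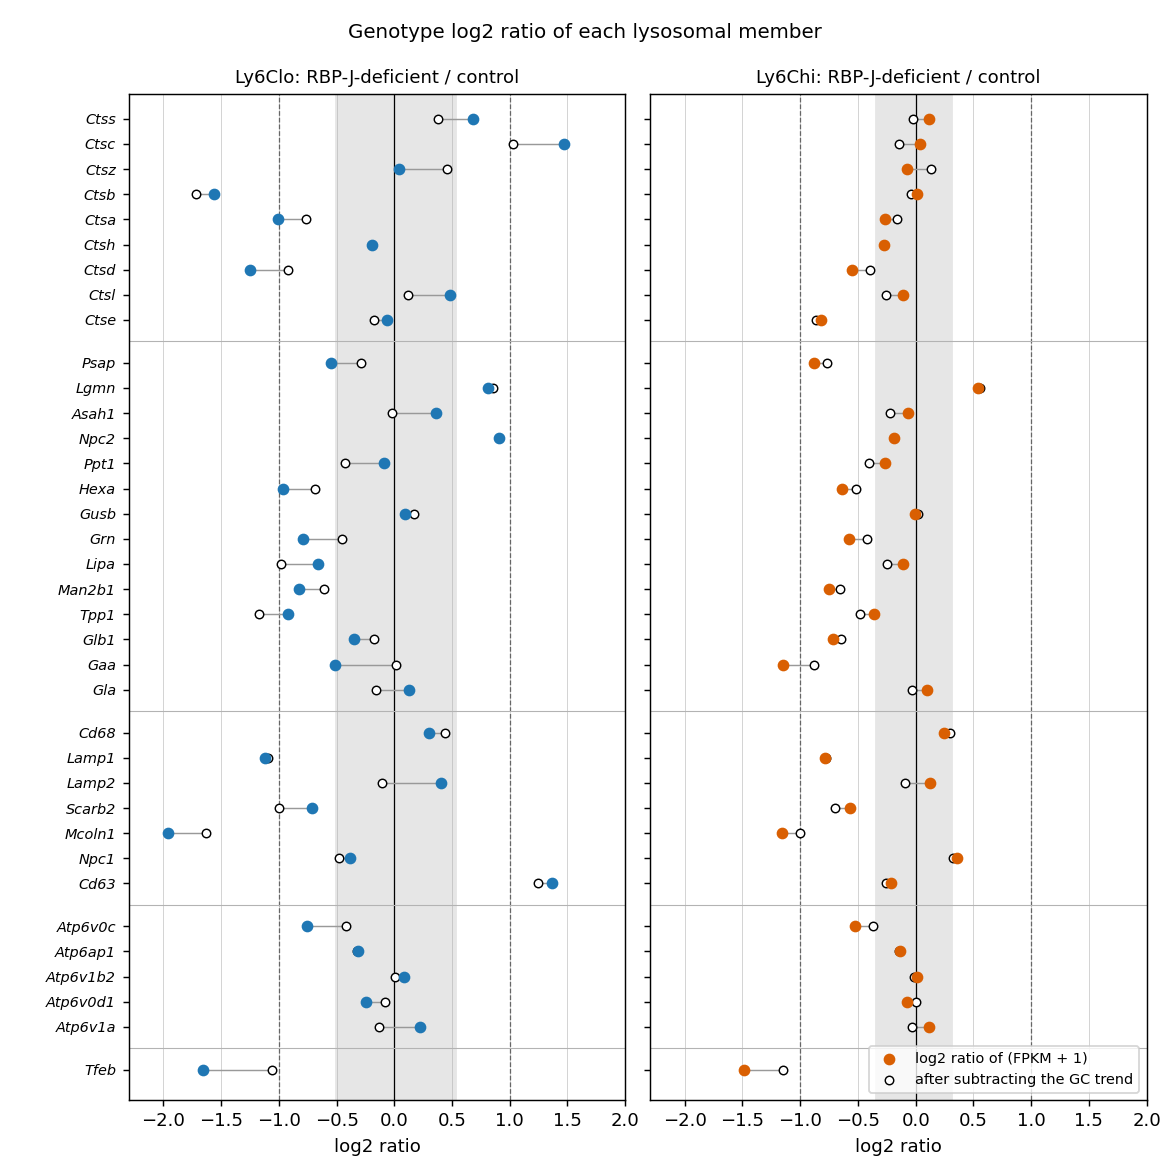
Genotype log2 ratio (of FPKM + 1, control as denominator) of each of the 36 members in Ly6Clo (left) and Ly6Chi (right) monocytes, 1 library per genotype and subset, so without error bars. Filled points are the ratios, open points the ratios after the trend with GC content was subtracted, grey bands the range between the quartiles of all expressed genes and dashed lines 2-fold; *Mcoln1* and *Tfeb* lie beyond 2-fold to the left in both panels, while *Ctsb* and *Ctsc* depart from 0 only in the left one.

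Cathepsins are the main lysosomal proteases. *Ctss*, for cathepsin S, was by far the most abundant member, with an FPKM of 4864 in control Ly6Clo, 7795 in RBP-J-deficient Ly6Clo, 5724 in control Ly6Chi and 6189 in RBP-J-deficient Ly6Chi monocytes. It made up 60.2% and 61.0% of the summed FPKM of the 9 cathepsins in control Ly6Clo and Ly6Chi monocytes, 64.4% in RBP-J-deficient Ly6Chi monocytes and 73.2% in RBP-J-deficient Ly6Clo monocytes. The last library was thus the highest in *Ctss* both as a level and as a share, with a genotype log2 ratio of 0.68, less than 2-fold. Without *Ctss*, the other cathepsins summed to 2852 in RBP-J-deficient Ly6Clo monocytes and to between 3213 and 3662 in the other libraries.

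*Ctsb* and *Ctsc* went opposite ways in Ly6Clo monocytes and barely differed between genotypes in Ly6Chi monocytes. *Ctsb* (chromosome 14, 63122462 to 63145923, plus strand), for the broadly acting cysteine protease cathepsin B, had 1046 FPKM in control Ly6Clo and 352.9 FPKM in RBP-J-deficient Ly6Clo monocytes, and 535.0 and 539.4 in control and RBP-J-deficient Ly6Chi monocytes. The control Ly6Clo library was the highest and the RBP-J-deficient Ly6Clo library the lowest, a log2 ratio of -1.57 (2.96-fold), against 0.01 in Ly6Chi monocytes. *Ctsc* (chromosome 7, 88278085 to 88310888, plus strand), for cathepsin C, the dipeptidyl peptidase that activates granule serine proteases, had 383.5 in control and 1063 in RBP-J-deficient Ly6Clo monocytes, and 1011 and 1038 in Ly6Chi monocytes. Here the control Ly6Clo library alone was low, and the RBP-J-deficient Ly6Clo value lay next to the Ly6Chi values, with a log2 ratio of 1.47 (2.77-fold) in Ly6Clo and 0.04 in Ly6Chi monocytes. The ratio of *Ctsb* to *Ctsc* FPKM was 2.73 in control Ly6Clo monocytes, 0.332 in RBP-J-deficient Ly6Clo monocytes, and 0.529 and 0.519 in control and RBP-J-deficient Ly6Chi monocytes. The Ly6Chi marker genes moved with *Ctsc*: their sum was 445.1 and 1473 in control and RBP-J-deficient Ly6Clo monocytes, and their part in the result was not tested. Measured against control Ly6Chi monocytes, RBP-J-deficient Ly6Clo monocytes had 105.2% of the *Ctsc* level, 66.6% of the *Ccr2* level and 3.89% of the *Ly6c2* level.

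The other cathepsins past 2-fold were lower. *Ctsd*, for the aspartic protease cathepsin D, had 87.7 FPKM in control Ly6Clo and 36.4 FPKM in RBP-J-deficient Ly6Clo monocytes, and 94.0 and 63.99 in Ly6Chi monocytes. Both control libraries lay above both RBP-J-deficient ones, with log2 ratios of -1.25 and -0.55. *Ctsa*, for cathepsin A (protective protein, which stabilizes β-galactosidase and neuraminidase), had 573.9 and 284.7 in Ly6Clo and 606.2 and 503.4 in Ly6Chi monocytes. Its log2 ratio of -1.01 in Ly6Clo monocytes only just passed 2-fold, and that in Ly6Chi monocytes was -0.27. *Ctsz*, for the carboxypeptidase cathepsin Z, had 834.2 and 857.6 in Ly6Clo and 857.4 and 815.9 in Ly6Chi monocytes. On the FPKM scale it was the steadiest of the abundant members, with all 4 ratios within 0.072 of 0. Its genotype ratio in Ly6Clo monocytes was -0.26 after TPM rescaling and 0.45 with the GC trend subtracted. The aminopeptidase gene *Ctsh* had between 238.6 and 536.2 FPKM, *Ctsl* between 10.1 and 17.6 and *Ctse* between 2.29 and 4.83, and none of these differed 2-fold between genotypes.

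**Figure D2:**
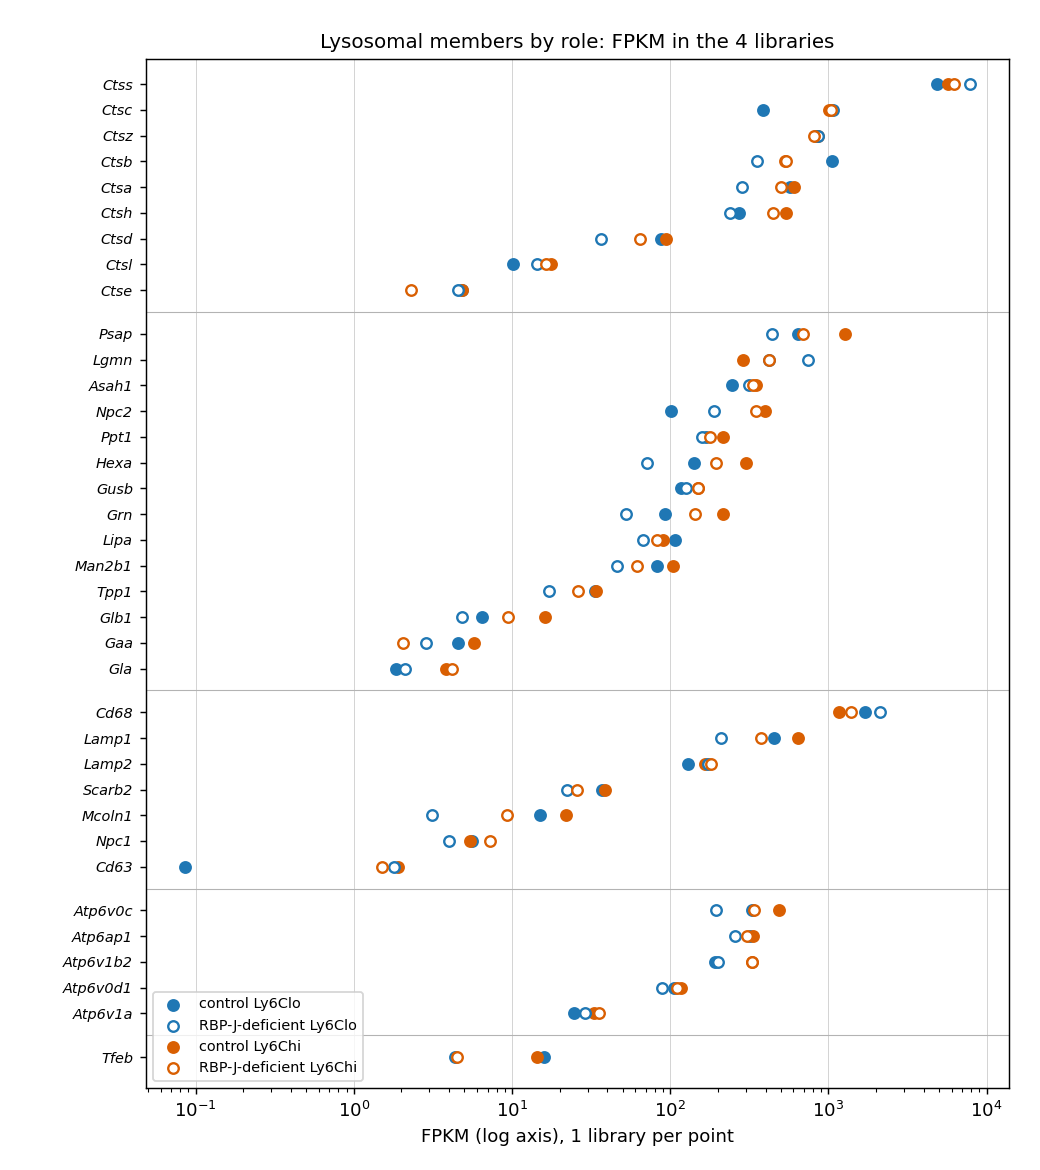
FPKM of the 36 members (log axis) in the 4 libraries, grouped by role with the most abundant at the top of each group; each point is 1 library. Blue is Ly6Clo and orange Ly6Chi, filled is control and open RBP-J-deficient; *Ctss* lies between 4864 and 7795, *Tfeb* is separated by genotype and not by subset, and *Cd63* is at 0.085 in control Ly6Clo monocytes.

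Among the 14 hydrolases and luminal partners no gene passed 2-fold between genotypes in Ly6Clo monocytes, and 9 were below 0 there. In Ly6Chi monocytes 12 of the 14 were below 0, with a median of -0.31. *Gaa*, for the acid α-glucosidase that degrades glycogen, was the one past 2-fold, with 5.77 FPKM in control Ly6Chi and 2.06 FPKM in RBP-J-deficient Ly6Chi monocytes (log2 ratio -1.15) and 4.53 and 2.86 FPKM in Ly6Clo monocytes (-0.52). *Hexa*, for the α subunit of the ganglioside-degrading β-hexosaminidase, had 140.7 and 71.5 in Ly6Clo and 302.9 and 194.7 in Ly6Chi monocytes, and with a log2 ratio of -0.97 in Ly6Clo monocytes it stopped just short of 2-fold. *Grn*, for progranulin, which binds in the lysosome and is cut into granulins, had 92.2 and 52.9 in Ly6Clo and 214.7 and 143.7 in Ly6Chi monocytes, with ratios of -0.79 and -0.58. *Hexa* and *Grn* shared 1 order of libraries: control above RBP-J-deficient within each subset, and Ly6Chi above Ly6Clo within each genotype. Other members had this order too, among them *Psap*, *Glb1*, *Ctsh* and *Atp6v0c*.

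*Psap*, the precursor of the saposins that help hydrolases reach their sphingolipid substrates, was the most abundant gene of this role. Its level was 641.5 FPKM in control Ly6Clo and 439.5 FPKM in RBP-J-deficient Ly6Clo monocytes and 1278 and 694.0 in Ly6Chi monocytes, log2 ratios of -0.54 and -0.88. *Lgmn*, for the asparaginyl endopeptidase legumain, which processes cathepsins and antigens, was an exception to the leaning of the members. It had 422.5 in control and 742.2 in RBP-J-deficient Ly6Clo monocytes and 290.4 and 423.7 in Ly6Chi monocytes, higher without RBP-J in both subsets, with log2 ratios of 0.81 and 0.54. *Npc2*, for the soluble cholesterol-binding protein of the lumen, had 100.4 and 189.1 in Ly6Clo and 397.4 and 349.6 in Ly6Chi monocytes, with ratios of 0.91 and -0.18, and like *Ctsc* it was lowest in control Ly6Clo monocytes. *Asah1*, for acid ceramidase, had 245.6 and 315.0 in Ly6Clo and 350.3 and 334.6 in Ly6Chi monocytes, and its log2 ratio of 0.36 in Ly6Clo monocytes turned to just below 0 with the GC trend subtracted or with TPM rescaling that leaves out *Actb*. *Glb1*, for lysosomal β-galactosidase, had 6.43 and 4.84 in Ly6Clo and 16.05 and 9.39 in Ly6Chi monocytes, with genotype ratios of -0.35 and -0.71.

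The remaining genes of the role kept within 2-fold between genotypes. *Tpp1*, for the tripeptidyl peptidase whose loss causes a neuronal lipofuscinosis, *Man2b1*, for α-mannosidase, and *Lipa*, for the lipase that hydrolyses cholesteryl esters, were lower in RBP-J-deficient Ly6Clo monocytes, with log2 ratios of -0.92, -0.83 and -0.66. *Man2b1* was also lower in Ly6Chi monocytes, at -0.75, and the other 2 were at -0.36 and -0.11. *Gusb*, *Ppt1* and *Gla*, for β-glucuronidase, palmitoyl-protein thioesterase and α-galactosidase, had genotype ratios between -0.26 and 0.12 over both subsets.

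*Mcoln1*, for the lysosomal calcium channel TRPML1, had the largest genotype difference of the members in Ly6Clo monocytes at a pseudocount of 1, an order that changed with the pseudocount and with the GC trend subtracted. On chromosome 8, 3500457 to 3515232 (plus strand), it had 15.0 FPKM in control Ly6Clo and 3.12 FPKM in RBP-J-deficient Ly6Clo monocytes, and 21.9 and 9.28 in control and RBP-J-deficient Ly6Chi monocytes. Both RBP-J-deficient libraries were below both controls, with log2 ratios of -1.96 (3.90-fold) in Ly6Clo and -1.16 (2.23-fold) in Ly6Chi monocytes. *Lamp1*, for the main structural glycoprotein of the lysosomal membrane, had 454.9 and 208.5 in Ly6Clo and 641.4 and 372.3 in Ly6Chi monocytes, again with both RBP-J-deficient libraries below both controls and with ratios of -1.12 and -0.78. *Scarb2*, for LIMP-2, the receptor that carries glucocerebrosidase to the lysosome, had 37.1 and 22.2 in Ly6Clo and 38.9 and 25.9 in Ly6Chi monocytes, with ratios of -0.71 and -0.57.

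Other membrane genes did not share this direction. *Cd68*, for the macrophage relative of LAMP proteins (macrosialin), had 1713 FPKM in control Ly6Clo and 2108 FPKM in RBP-J-deficient Ly6Clo monocytes, and 1173 and 1391 in Ly6Chi monocytes, log2 ratios of 0.30 and 0.25, the former just below 0 on a TPM scale. *Lamp2*, whose protein is needed for autophagosome fusion and chaperone-mediated autophagy, had 130.4 and 172.4 in Ly6Clo and 167.0 and 182.1 in Ly6Chi monocytes, with ratios of 0.40 and 0.12, both below 0 once the GC trend was subtracted. The ratio of *Cd68* to *Lamp1* FPKM therefore ran from 1.83 in control Ly6Chi and 3.74 in RBP-J-deficient Ly6Chi to 3.77 in control Ly6Clo and 10.1 in RBP-J-deficient Ly6Clo monocytes. *Cd63*, a tetraspanin of late endosomes, was near the lower limit of expression, at 0.085, 1.8, 1.89 and 1.5 in control Ly6Clo, RBP-J-deficient Ly6Clo, control Ly6Chi and RBP-J-deficient Ly6Chi monocytes, so its place among the genes past 2-fold rests on values below 2 and was lost with a pseudocount of 5. *Npc1*, for the membrane cholesterol transporter, had 5.55 and 4.01 in Ly6Clo and 5.46 and 7.26 in Ly6Chi monocytes.

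The V-ATPase has a cytosolic sector, V1, that splits ATP, and a membrane sector, V0, that conducts protons. None of the 5 member subunits passed 2-fold in any comparison. *Atp6v0c*, for the proteolipid of the membrane ring, had 326.6 FPKM in control Ly6Clo and 193.5 FPKM in RBP-J-deficient Ly6Clo monocytes, and 486.0 and 338.0 in Ly6Chi monocytes, with log2 ratios of -0.75 and -0.52. *Atp6v1b2*, for the catalytic sector's B subunit of most cells, had 190.8 and 201.7 in Ly6Clo and 327.7 and 331.0 in Ly6Chi monocytes, next to no difference between genotypes. *Atp6ap1*, for an accessory protein of the membrane sector, had 318.9 and 255.8 in Ly6Clo and 335.7 and 305.4 in Ly6Chi monocytes. *Atp6v0d1* and *Atp6v1a* had genotype log2 ratios between -0.25 and 0.22 over both subsets.

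*Tfeb*, the regulator of many genes above, was separated by genotype and not by subset. Located on chromosome 17, 47737030 to 47792419 (plus strand), it had 15.9 FPKM in control Ly6Clo and 4.37 FPKM in RBP-J-deficient Ly6Clo monocytes, and 14.4 and 4.49 in control and RBP-J-deficient Ly6Chi monocytes. The log2 ratio was -1.65 (3.14-fold) in Ly6Clo and -1.49 (2.81-fold) in Ly6Chi monocytes, the lowest of the 36 members in Ly6Chi monocytes. The 2 subsets of a genotype differed by 0.13 in controls and -0.03 without RBP-J (Ly6Clo over Ly6Chi). Its transcript had the highest GC content of the members, 63.2%, and with the GC trend subtracted its ratios were -1.06 and -1.15.

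Promoter windows of RefSeq on GRCm38.p6, from 250 bases before to 50 after a start site, were found for 30 of the 36 members and were searched on both strands for the core of the CLEAR element, TCACGTGA, the E-box within it, CACGTG, and a core RBP-J site, GTGGGAA. The CLEAR core was in 6 of the 30 members (20%) and in 1.12% of 27025 gene symbols. These 6 were *Ctsa*, *Ctsd*, *Gla*, *Mcoln1*, *Atp6v0d1* and *Atp6v1a*. The E-box, which every CLEAR core contains, was in 11 members (36.7%) and in 8.09% of all symbols, adding *Ctsl*, *Glb1*, *Gaa*, *Lgmn* and *Lamp1*. These letters of the RBP-J site were in none of the 30 windows and in 7.25% of all symbols. The windows of *Ctsb*, *Ctse*, *Ctsh*, *Asah1*, *Npc1* and *Atp6v1b2* were not analysed here. The start sites are those of RefSeq. For *Mcoln1*, *Ctsd* and *Ctsa* they lie inside the gene as placed by GENCODE. The stretches below thus lie partly or, for *Ctsa*, wholly within those genes. Shown are the stretches before the start site of the 4 members with an E-box that were at least 2-fold lower in RBP-J-deficient Ly6Clo monocytes. They run 5′ to 3′ on the gene's strand, with E-boxes and CLEAR cores in capitals.
Mcoln1, chr8:3500428-3500500, plus strand: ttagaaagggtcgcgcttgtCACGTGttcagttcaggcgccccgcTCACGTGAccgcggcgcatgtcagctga
Ctsd, chr7:142387899-142388077, minus strand: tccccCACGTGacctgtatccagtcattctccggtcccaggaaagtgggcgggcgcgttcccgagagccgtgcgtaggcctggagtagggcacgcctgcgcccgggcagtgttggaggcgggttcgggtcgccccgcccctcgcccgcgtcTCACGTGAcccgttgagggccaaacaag
Ctsa, chr2:164833740-164833772, plus strand: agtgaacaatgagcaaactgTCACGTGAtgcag
Lamp1, chr8:13159080-13159160, plus strand: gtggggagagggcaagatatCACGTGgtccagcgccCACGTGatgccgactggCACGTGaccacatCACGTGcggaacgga

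*Lamp1* held 4 E-boxes, whose first bases lay 61, 45, 28 and 15 bases before the start site, none of them in a full CLEAR core. *Mcoln1* and *Ctsd* each held 2 E-boxes, 1 of them in a CLEAR core, and the *Ctsa* window held 2 CLEAR cores, of which the shown stretch, which ends at the start site, holds the one before it. Members with and without an E-box had similar medians. Their counts past 2-fold differed on the FPKM scale, a difference that changed with the processing, and no test was made. In RBP-J-deficient Ly6Clo monocytes 4 of the 11 members with an E-box were at least 2-fold lower and none higher, against 1 lower and 2 higher of the 19 without one. Of all expressed genes 11.1% were lower and 8.97% higher by as much. In this comparison the median log2 ratio was -0.35 over the 11 members with an E-box and -0.32 over the 19 without one, and with the GC trend subtracted -0.16 and -0.32. The 6 members with a CLEAR core had a median of -0.63 there, with 3 at least 2-fold lower, and of -0.46 with the GC trend subtracted. In Ly6Chi monocytes the medians with and without an E-box were -0.27 and -0.21, and that with a CLEAR core was -0.17. Members with an E-box ranged from *Mcoln1* at -1.96 to *Lgmn* at 0.81 in Ly6Clo monocytes, and *Tfeb* itself was without one. The counts in Ly6Clo monocytes shifted with the processing. With the GC trend subtracted *Ctsa* and *Ctsd* fell short of 2-fold, and *Tpp1*, without an E-box, passed it. On a TPM scale *Hexa*, *Tpp1*, *Man2b1*, *Grn*, *Scarb2* and *Atp6v0c*, all without an E-box, were also at least 2-fold lower.

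Genotype ratios followed the GC content of the transcript in these libraries, among the members as among all genes. Spearman's rho between the log2 ratio and the GC content of the longest coding transcript was -0.55 over the 36 members in Ly6Clo and -0.56 in Ly6Chi monocytes, and -0.37 and -0.30 over 6086 genes averaging 5 FPKM or more. These are descriptions across genes, which share the same libraries and their base composition and are not independent replicates. The members had a median GC content of 51.3%, against 49.3% for those genes, and ranged from *Lamp2* at 38.7% to *Tfeb* at 63.2%. With the trend of all genes subtracted, the median of the members was -0.19 in Ly6Clo and -0.25 in Ly6Chi monocytes. Below 0 were 25 and 31 of the 36, against 52.6% and 52.3% of all expressed genes.

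Which members stood out changed in part with this correction. *Ctsb* stayed at -1.71, *Mcoln1* at -1.63, *Lamp1* at -1.09 and *Tfeb* at -1.06 in Ly6Clo monocytes, still past 2-fold, whereas *Ctsd* moved to -0.92 and *Ctsa* to -0.77. *Tpp1*, with a GC content of 46.8%, moved past 2-fold, to -1.18. *Ctsc*, with a low GC content of 41.1%, moved from 1.47 to 1.03. In Ly6Chi monocytes *Tfeb* was at -1.15, *Mcoln1* was still just past 2-fold, and *Gaa*, with 59.5% GC, moved from -1.15 to -0.88. The part that GC content plays in these differences was not tested.

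**Figure D3:**
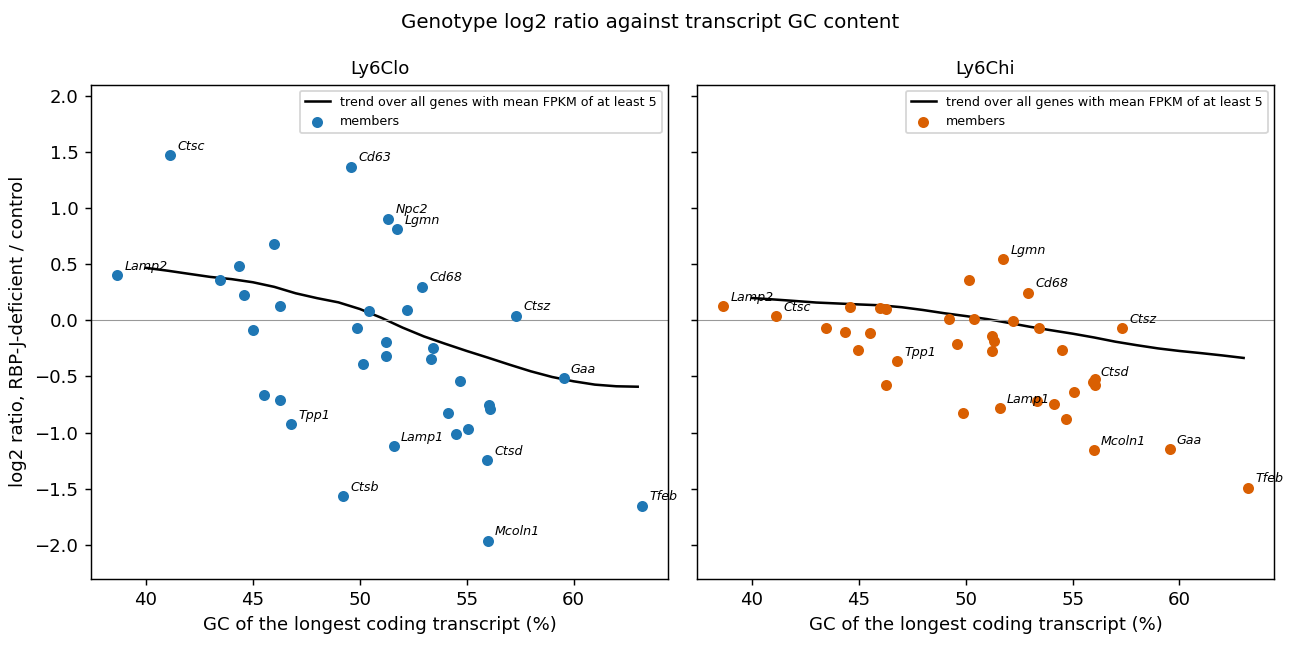
Genotype log2 ratio (of FPKM + 1, control as denominator) of the 36 members (points) against the GC content of the longest coding transcript in percent, in Ly6Clo (left) and Ly6Chi (right) monocytes. Black lines are the trend over 6086 genes, which falls with GC content in both panels; *Ctsb* and *Mcoln1* lie far below it on the left and *Ctsc* far above it, while *Gaa* on the left lies on it.

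Between the subsets, most members were lower in Ly6Clo than in Ly6Chi monocytes in both genotypes. In controls 30 of 36 had a log2 ratio (Ly6Clo over Ly6Chi) below 0, with a median of -0.35 against 0 over all expressed genes. In RBP-J-deficient monocytes 28 of 36 did, with a median of -0.30 against 0.02. Of all expressed genes 49.8% and 48.8% were below 0 in these comparisons. In controls 6 members (16.7%) were at least 2-fold lower in Ly6Clo monocytes, against 7.75% of all expressed genes, and none was at least 2-fold higher, against 5.21%. In RBP-J-deficient monocytes 3 members (8.33%) were at least 2-fold lower, against 10.6%, and none at least 2-fold higher, against 8.41%. On a TPM scale 10 members (27.8%) were lower in RBP-J-deficient monocytes, against 15.5% of all expressed genes.

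*Npc2* showed the widest gap between the control subsets at a pseudocount of 1, with a log2 ratio of -1.97 (3.93-fold lower in Ly6Clo), and a gap of -0.88 without RBP-J. *Hexa* and *Grn* were past 2-fold in both genotypes, at -1.10 and -1.21 in controls and -1.43 for each in RBP-J-deficient monocytes. *Ctsc*, *Cd63* and *Glb1* completed the control list at -1.40, -1.41 and -1.20, and *Mcoln1* that of the RBP-J-deficient monocytes at -1.32. All 5 V-ATPase members were lower in Ly6Clo monocytes of both genotypes, between -0.07 and -0.80. Of 12 expressed V-ATPase subunits outside the members, 9 were below 0 in controls but only 4 in RBP-J-deficient monocytes. The latter had a median of 0.14, and of -0.02 with the GC trend subtracted. *Ctsb* had the highest ratio of the members in controls, at 0.97, and the sign was opposite in RBP-J-deficient monocytes, at -0.61. *Lgmn* and *Cd68* were higher in Ly6Clo monocytes of both genotypes, at 0.54 and 0.55 in controls and at 0.81 and 0.60 without RBP-J. Each of these comparisons shares a library with each genotype comparison, so their values are given side by side and are not independent of them.

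Of 104 further lysosome genes in 7 lists, 92 were expressed. Their median genotype log2 ratio was -0.08 in Ly6Clo monocytes, with 17 (18.5%) at least 2-fold lower and 7 higher. In Ly6Chi monocytes it was -0.07, with 8 (8.70%) lower and 1 higher. Of all expressed genes 11.1% were lower and 8.97% higher in Ly6Clo monocytes, and 4.56% and 2.64% in Ly6Chi monocytes. The 26 expressed hydrolases outside the members had a median of -0.29 in Ly6Clo monocytes, with 6 (23.1%) at least 2-fold lower and none higher. With the GC trend subtracted their median was -0.08, with 14 of 26 below 0. *Naglu*, for an enzyme of heparan sulfate breakdown, was the lowest in Ly6Chi monocytes, at 8.44 in control and 1.49 in RBP-J-deficient cells (-1.92), with 4.09 and 3.23 in Ly6Clo monocytes. Of the 20 expressed membrane proteins outside the members, 5 (25%) were at least 2-fold lower in RBP-J-deficient Ly6Clo monocytes and none higher, with a median of -0.28. In Ly6Chi monocytes none of them passed 2-fold and the median was -0.14. With the GC trend subtracted 6 of them were at least 2-fold lower and 1 higher in Ly6Clo monocytes.

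The further V-ATPase subunits leaned the other way in Ly6Clo monocytes, where 9 of 12 expressed genes were above 0, with a median of 0.47. The 3 genes below 0 all encode isoforms of the membrane sector's a subunit, with *Atp6v0a2* at -1.14, *Atp6v0a1* at -0.94 and *Tcirg1*, for the a3 isoform, the lowest. *Tcirg1* had 42.5 FPKM in control Ly6Clo and 11.2 FPKM in RBP-J-deficient Ly6Clo monocytes, a log2 ratio of -1.84, and 98.2 and 53.0 in Ly6Chi monocytes. When members and further subunits were joined by sector, a split made after the values were seen, all 8 expressed genes of the cytosolic sector were above 0 in Ly6Clo monocytes, with a median of 0.49. The 9 expressed genes of the membrane sector and its accessory proteins had a median of -0.32, with 6 below 0. With the GC trend subtracted the medians were 0.35 and -0.32, with 2 of the 8 cytosolic genes below 0, and on a TPM scale they were 0.19 and -0.62, with 3 of the 8 below 0.

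The regulator list holds the relatives of *Tfeb*, the Ragulator and Rag genes that anchor mTORC1 to the lysosome, and mTORC1 parts. Over 16 expressed genes it had a median of 0.57 in Ly6Clo and 0.20 in Ly6Chi monocytes, with 12 and 11 above 0. Below 0 were 25% and 31.25%, against 48.2% and 49.3% of all expressed genes. With the GC trend subtracted the medians were 0.34 and 0.11. *Rraga*, for the small GTPase RagA, had 10.4 FPKM in control Ly6Clo and 36.1 FPKM in RBP-J-deficient Ly6Clo monocytes, a log2 ratio of 1.70, and 16.8 and 18.9 FPKM in Ly6Chi monocytes. *Rragc*, for its partner RagC, was higher without RBP-J in both subsets, at 7.77 and 20.9 in Ly6Clo and 5.25 and 15.1 in Ly6Chi monocytes, with ratios of 1.32 and 1.37. The 5 Ragulator genes had a median of 0.73 in Ly6Clo and 0.27 in Ly6Chi monocytes, with *Lamtor1* below 0 in both. On a TPM scale the medians were 0.43 and 0.17, and *Lamtor3* was also below 0 in Ly6Chi monocytes, at -0.06. Of the 2 expressed relatives of *Tfeb* above 5 FPKM, *Tfe3* had 10.5 and 6.23 in Ly6Clo and 16.4 and 6.99 in Ly6Chi monocytes. Its ratios were -0.66 and -1.13. The other, *Tfec*, had 0 and 0.13 in Ly6Clo and 6.91 and 9.40 in Ly6Chi monocytes. *Mitf*, a relative with lower values, had 0.54 and 1.93 in Ly6Clo and 1.42 and 1.87 in Ly6Chi monocytes, ratios of 0.93 and 0.24.

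Of the cathepsin inhibitors, *Cst3*, for the secreted inhibitor cystatin C, had 11208 FPKM in control Ly6Clo and 19756 FPKM in RBP-J-deficient Ly6Clo monocytes, and 5730 and 9585 in Ly6Chi monocytes. It was higher without RBP-J in both subsets, with log2 ratios of 0.82 and 0.74, and its FPKM relative to that of *Ctss* was 2.30 and 2.53 in Ly6Clo and 1.001 and 1.55 in Ly6Chi monocytes. *Cstb*, for the cytosolic inhibitor stefin B, had 167.7 and 304.9 in Ly6Clo and 438.5 and 573.7 in Ly6Chi monocytes, ratios of 0.86 and 0.39. The stefin-family gene *BC100530* is listed at 0 in 3 libraries and at 2.43 in RBP-J-deficient Ly6Clo monocytes, and *Stfa2l1* at 0, 1.33, 3.29 and 0.33 in control Ly6Clo, RBP-J-deficient Ly6Clo, control Ly6Chi and RBP-J-deficient Ly6Chi monocytes. Genes of that family are near copies of one another, so their values are uncertain. The 9 genes that sort enzymes to the lysosome had medians of -0.33 in Ly6Clo and -0.25 in Ly6Chi monocytes, with 6 and 7 below 0. With the GC trend subtracted the medians were -0.19 and -0.13. *Nagpa* and the GGA adaptor gene *Gga1* were the lowest in Ly6Clo monocytes, at -1.54 and -1.33. The mannose 6-phosphate receptor genes did not share this direction there. *Igf2r* had 1.17 FPKM in control and 3.70 FPKM in RBP-J-deficient Ly6Clo monocytes, with ratios of 1.12 in Ly6Clo and 0.70 in Ly6Chi monocytes. *M6pr* was at 0.0083 and -0.028. The 3 further cathepsins were below 0 in Ly6Clo monocytes, and *Ctsk* and *Ctsf* stayed below 2 FPKM in every library.

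**Figure D4:**
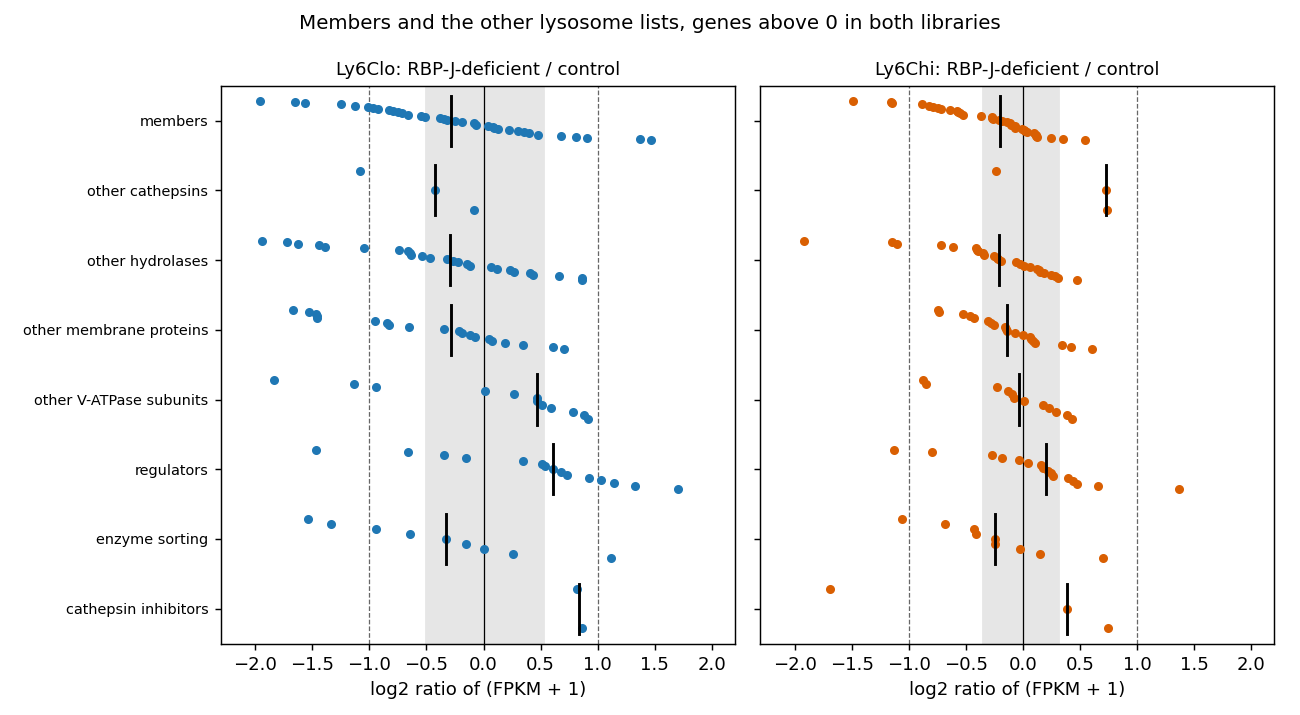
Genotype log2 ratio (of FPKM + 1, control as denominator) of the 36 members and of the genes of 7 further lysosome lists in Ly6Clo (left) and Ly6Chi (right) monocytes, for expressed genes above 0 in both libraries compared. Each point is a gene, black bars are medians of the points, grey bands the range between the quartiles of all expressed genes and dashed lines 2-fold; hydrolases and membrane proteins extend further to the left than to the right in Ly6Clo monocytes, while most V-ATPase subunits outside the members and most regulators lie to the right of 0.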

How the data were processed

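The authors deposited 1 table of FPKM values for all 6 pairs of the 4 libraries, made from paired-end HiSeq2500 reads. The submitters' processing notes name CASAVA 1.8, TopHat2 2.1.0, Cufflinks 2.2.1 and mm10 without their roles. The table also holds fold changes, test statistics, p-values, q-values and a significance flag for each pair, from comparisons of single libraries, and an unnamed column, none of which were used. Groups came from the sample titles and genotype labels.

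The log2 ratio of (FPKM + 1), a pseudocount of 1, was computed for each pair from its own rows, with rows sharing a symbol summed, over genes that reached 1 FPKM in 1 library or more. Members at least 2-fold apart in any comparison, and the 3 most abundant of each role, are given in all libraries; of the other lists, the 2 highest and 2 lowest ratios per subset are named, and other genes named there were chosen after their values were seen. One gene that this rule names is not reported here. The members and lists were chosen with earlier results of these data known. A lowess trend (fraction 0.3, 3 iterations) of the ratio against transcript GC content, fitted over 6086 genes averaging 5 FPKM or more, was subtracted as an alternative. A GC content was found for 94.9% of expressed genes and all 36 members. Library strand is not given in the sources used here, so overlapping genes cannot be told apart. Coordinates are those of GENCODE M21 on GRCm38, 1-based. Other alternatives were pseudocounts of 0.1 and 5, stricter and no filter, TPM, median centring and other fold thresholds. The procedure was tested on simulated data. Software was Python 3.11.15 with statsmodels 0.14.6, scipy 1.17.1, pandas 2.3.3 and matplotlib 3.10.9.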

Additional observations from a re-analysis of the deposited data

Results flagged for a closer look

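Members are given here whose genotype ratio had opposite signs in the 2 subsets, or whose subset ratio had opposite signs in the 2 genotypes. With 1 library per group these differences were not tested, and many are close to 0. The difference of the 2 genotype log2 ratios (Ly6Clo minus Ly6Chi) equals that of the 2 subset ratios (RBP-J-deficient minus control), so a gene named for both has 1 value.

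For 8 members the genotype ratio had opposite signs. *Ctsb* (-1.58) and *Npc1* (-0.74) were lower without RBP-J in Ly6Clo and higher in Ly6Chi monocytes, and for *Ctsb* the ratio in Ly6Chi monocytes was 0.01. *Cd63* (1.58), *Npc2* (1.09), *Ctsl* (0.59), *Asah1* (0.42), *Ctsz* (0.11) and *Gusb* (0.097) were higher without RBP-J in Ly6Clo and lower in Ly6Chi monocytes.

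For 10 members the subset ratio had opposite signs. *Cd63* (1.58), *Ctsc* (1.43), *Ctse* (0.76), *Gaa* (0.63), *Ctss* (0.57) and *Ctsz* (0.11) were lower in Ly6Clo than in Ly6Chi monocytes of controls and higher in RBP-J-deficient ones. *Ctsb* (-1.58), *Npc1* (-0.74), *Lipa* (-0.55) and *Tfeb* (-0.16) had the reverse order. In all, 14 members met either condition.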

How the results depend on the processing

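The 4 medians of the members stayed below 0 under every alternative. Of the 8 members past 2-fold between genotypes in Ly6Clo monocytes, 6 were still past it with a pseudocount of 5, where *Ctsa* and *Cd63* were lost, and 6 with the GC trend subtracted, where *Ctsa* and *Ctsd* were lost. The count of higher members in Ly6Clo monocytes was 1 with a pseudocount of 5 and 1 when an FPKM of at least 1 was asked in all 4 libraries, which removes *Cd63*. In Ly6Chi monocytes the count of lower members was 1 with a pseudocount of 5. Under TPM the lower members numbered 12 between genotypes in Ly6Clo and 10 between subsets without RBP-J, where 17.7% and 15.5% of all expressed genes were lower. In TPM without *Actb*, an alternative chosen after seeing the data, 13 and 10 were lower, and 5 between genotypes in Ly6Chi monocytes, against 19.1%, 15.5% and 7.73% of all genes. At the fold thresholds 5.7 and 0.2 every count was 0. At 1.5-fold the higher members numbered 5 in Ly6Clo between genotypes, and 1 and 3 between subsets in controls and RBP-J-deficient monocytes, against 23%, 13.7% and 20.7% of all genes. The lower ones numbered 13 in Ly6Clo and 9 in Ly6Chi between genotypes, and 11 and 16 between subsets, against 22%, 14.3%, 16.2% and 21.4% of all genes. The genotype ratio of largest size among the members in Ly6Clo monocytes was that of *Mcoln1* (-1.96) at a pseudocount of 1, of *Cd63* (3.36) at 0.1, of *Ctsb* (-1.55) at 5 and of *Ctsb* (-1.71) with the GC trend subtracted. The causes of the shifts with scale and pseudocount were not tested. Of 732 log2 ratios of named members under alternatives, 670 kept their sign and side of 2-fold, 32 others, all short of 2-fold to begin with, changed sign, and no ratio past 2-fold did. No paired analysis was possible because each group holds 1 library and no replicate numbers are given.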
